A study of Mus musculus with 4 samples.

Results

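Immunoglobulin constant region genes encode the part of an antibody chain that sets its class. The 10 genes described here were chosen by symbol and comprise 7 heavy chain genes (Ighm, Ighd, Ighg3, Ighg1, Ighg2b, Ighg2c and Igha), the kappa light chain gene Igkc, and the lambda light chain genes Iglc1 and Iglc2. They are 10 of the 55401 genes listed in the count tables. RNA was sequenced from B220+ cells sorted from the spleen of C57BL/6J mice, in 2 NSD1B WT and 2 NSD1B KO libraries. NSD1B WT mice were Mb1-Cre+ NSD1+/+ and NSD1B KO mice were Mb1-Cre+ NSD1 fl/fl, so both groups carried the Cre, which is driven by Cd79a and acts from the earliest B cell stages. The floxed exons of Nsd1, a methyltransferase for lysine 36 of histone H3, are removed in the NSD1B KO. Mice in the study were young adults of both sexes with littermate controls, and the sources used here name no immunization for these cells. Whether the pair of libraries of a genotype came from different mice is not stated, so the p-values below measure only the spread between these libraries.

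A naive B cell makes Ighm and Ighd from a single primary transcript, by choosing between splice and poly(A) sites, and so carries IgM and IgD with the same variable region. Class switch recombination deletes the DNA between Ighm and a constant gene further downstream and so replaces IgM by IgG, IgE or IgA. Each B cell also carries a light chain, kappa or lambda, and most mouse B cells use kappa. The counts here are per gene, so the membrane and secreted forms of a heavy chain cannot be told apart.

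The heavy chain genes lie on the minus strand of chromosome 12 in mm10, in the order Ighm, Ighd, Ighg3, Ighg1, Ighg2b, Ighg2c, Ighe and Igha, and all positions here are from GENCODE M21. Ighm runs from chr12:113418558-113422730, and the start of Igha lies 162.5 kb downstream of its start. Igkc lies on the plus strand at chr6:70726435-70726966. Iglc1 (chr16:19061618-19062071) and Iglc2 (chr16:19198396-19200351) lie on the minus strand of chromosome 16.

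Some constant genes resemble each other, Iglc2 and Iglc3 most closely among the pairs compared here. The letters decide whether a read can be given to one gene of such a pair. The first 300 coding bases of the constant exons of Iglc2 (chr16:19198554-19198853), Iglc3 (chr16:19065382-19065681), which is no member but the nearest copy, and Iglc1 (chr16:19061772-19062071) are shown 5′ to 3′ from the GENCODE M21 transcripts, all from the minus strand. Capitals mark bases that differ from, or have no partner in, Iglc3 (first line) or Iglc2 (the other lines).
Iglc2: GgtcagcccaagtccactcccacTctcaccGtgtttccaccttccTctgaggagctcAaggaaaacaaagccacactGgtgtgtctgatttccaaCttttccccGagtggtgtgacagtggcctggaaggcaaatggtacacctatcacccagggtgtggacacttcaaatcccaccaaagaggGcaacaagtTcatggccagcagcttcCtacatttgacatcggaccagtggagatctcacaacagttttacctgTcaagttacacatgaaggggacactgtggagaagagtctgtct
Iglc3: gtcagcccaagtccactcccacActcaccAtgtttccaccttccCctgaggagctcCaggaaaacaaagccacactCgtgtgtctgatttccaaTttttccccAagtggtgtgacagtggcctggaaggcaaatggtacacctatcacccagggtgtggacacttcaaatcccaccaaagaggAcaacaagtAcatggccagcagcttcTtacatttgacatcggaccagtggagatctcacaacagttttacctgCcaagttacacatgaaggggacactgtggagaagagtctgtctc
Iglc1: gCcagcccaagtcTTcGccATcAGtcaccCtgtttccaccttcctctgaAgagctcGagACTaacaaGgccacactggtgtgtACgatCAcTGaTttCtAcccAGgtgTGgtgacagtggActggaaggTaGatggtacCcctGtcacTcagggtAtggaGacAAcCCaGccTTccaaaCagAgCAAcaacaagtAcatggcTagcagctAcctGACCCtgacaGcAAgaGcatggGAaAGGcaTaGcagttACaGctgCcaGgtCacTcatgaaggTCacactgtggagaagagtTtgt
Over the whole coding part, Iglc2 and Iglc3 were identical in 96.2% of 315 aligned columns, with 11 mismatches, and their longest identical run was 79 nt. Iglc2 and Iglc1 were identical in 73.4% of 319 aligned columns, with a longest identical run of 19 nt. For comparison, the identity of Iglc2 and Igkc was 53.6%.

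Ighg2b and Ighg2c are shown because the first rose most of all members while the second was nearly uncounted. Their first constant exons (chr12:113307643-113307933 and chr12:113288642-113288932, minus strand) have capitals where they differ from each other.
Ighg2b: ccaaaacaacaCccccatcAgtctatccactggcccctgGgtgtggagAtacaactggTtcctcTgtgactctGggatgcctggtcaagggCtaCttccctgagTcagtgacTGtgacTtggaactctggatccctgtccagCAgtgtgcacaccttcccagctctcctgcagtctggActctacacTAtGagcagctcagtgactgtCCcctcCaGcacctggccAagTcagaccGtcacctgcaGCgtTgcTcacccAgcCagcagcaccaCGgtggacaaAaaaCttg
Ighg2c: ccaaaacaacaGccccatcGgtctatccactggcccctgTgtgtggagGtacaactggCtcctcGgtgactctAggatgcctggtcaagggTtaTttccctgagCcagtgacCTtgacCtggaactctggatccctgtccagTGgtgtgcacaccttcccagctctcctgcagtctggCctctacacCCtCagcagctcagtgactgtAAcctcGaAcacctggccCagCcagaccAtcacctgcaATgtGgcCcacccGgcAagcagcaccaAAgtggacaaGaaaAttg
These exons were identical in 87.6% of 291 columns, with 36 mismatches and a longest identical run of 34 nt. Over whole transcripts, 7.65% of the 50-nt words of Iglc2 and 4.15% of those of Ighg2b also stood in another gene, while no 100-nt or 150-nt word of any of the 10 genes did. The reads were 150 nt long and paired, and reads that mapped to more than 1 place were set apart from the gene counts.

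The libraries held 6769118 to 7566834 counts on genes. Nsd1, the targeted gene, had 497 and 480 counts in NSD1B WT and 284 and 280 in NSD1B KO, a log2 fold change of -0.74 (SE 0.11, edgeR quasi-likelihood test, adjusted p = 8.08e-08). The counts do not separate the floxed exons from the others. CPM below is the count of a gene scaled to a common library total. The 10 constant genes together took 3.33% and 3.61% of all gene counts in NSD1B WT and 4.34% and 4.41% in NSD1B KO. Of the 7 genes in the B cell marker list, 5 fell, Cd79a, Ms4a1, Ptprc and Pax5 among them, and 2 were not called, and all 7 were counted in every library. Hemoglobin and other erythroid markers rose in 5 of 5 tested genes, from a summed 35.6 to 39.6 CPM in NSD1B WT to 1690 to 1944 CPM in NSD1B KO. Myeloid markers rose in 5 and fell in 2 of 7, from a summed 4570 to 4673 CPM to 5734 to 6082 CPM. T cell markers, 3 higher and 1 lower of 5 tested, summed to 68.4 to 70.0 CPM in NSD1B WT and 91.7 to 97.6 CPM in NSD1B KO, with Cd4 and Cd8a at 0. NK cell markers, 2 higher and 1 lower of 3 tested, summed to 56.5 to 59.9 CPM and 83.2 to 86.4 CPM, with Ncr1 and Gzma at 0. No plasmacytoid dendritic cell marker passed the filter, and Siglech, Cox6a2 and Klk1 were at 0. The part of these other cell types in the results below was not tested. In RNA from a bulk sort, fewer cells of a type and less RNA per cell cannot be told apart.

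Ighd, Ighg2b, Igkc, Iglc1 and Iglc2 were higher in NSD1B KO, and Ighm, Ighg3 and Igha were lower. A gene was called when its adjusted p was below 0.05 and its fold change above 1.2, and 8 of the 10 genes passed the low-count filter. All 8 were called, 5 higher and 3 lower, in a comparison that called 78.2% of all 11657 tested genes, 37.1% higher and 41.1% lower. In all 8 the groups did not overlap, which held for 88.1% of tested genes (41.8% higher and 46.2% lower). With so many genes called, the count of called members is close to what the background gives, and the sizes and directions below carry the description. The median absolute log2 fold change was 1.16 over all tested genes but 0.36 over the 113 genes with at least 1000 CPM, a group that holds Ighm, Igkc, Iglc1 and Iglc2.

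**Figure D1:**
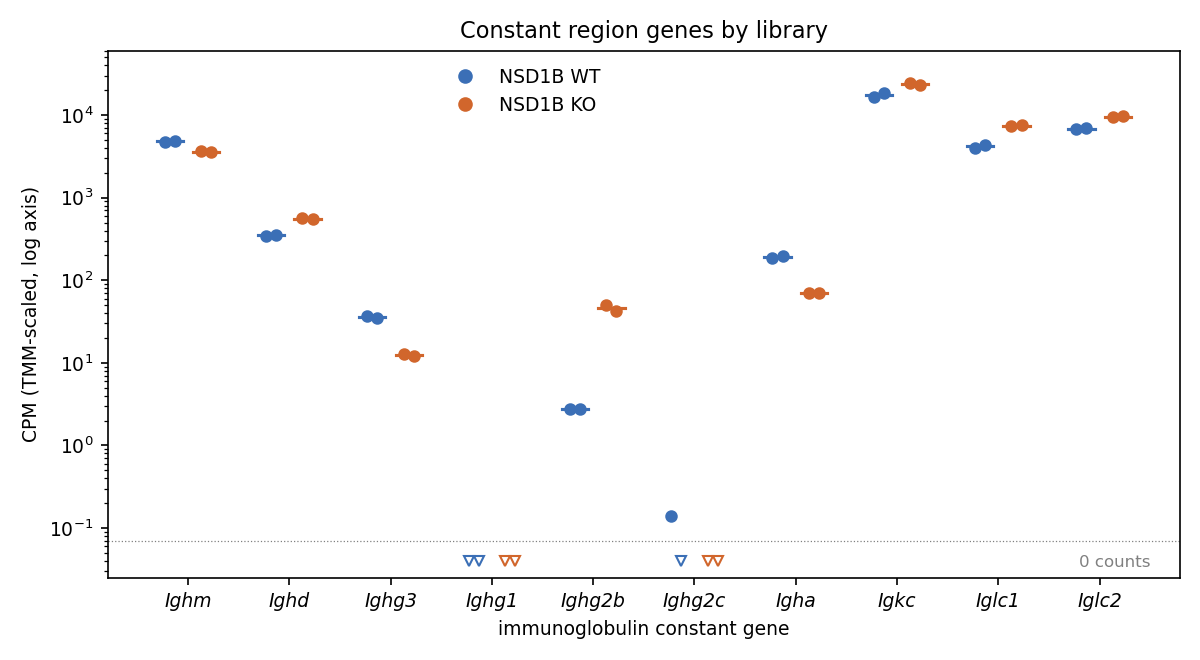
CPM (TMM-scaled, log axis) of the 10 constant region genes in each of the 4 libraries. Circles are libraries, bars are the means of the 2 libraries of a genotype, and open triangles under the dotted line are libraries with 0 counts. The genotypes do not overlap in 8 genes, and Ighg1 and Ighg2c lie at or near 0.

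Per length, the light chain genes were far above the heavy chain genes. The lengths used join 4 to 6 exons in a heavy chain gene, 1 in Igkc and Iglc1 and 2 in Iglc2. The effect of this on the levels was not tested. In NSD1B WT, Igkc reached 30700 and 34630 CPM per kb of exon, Iglc2 10930 and 11530, Iglc1 8911 and 9590, and Ighm 2534 and 2562. Ighd followed with a mean of 185 CPM per kb, Igha with 71.9, Ighg3 with 14.2 and Ighg2b with 1.03. No neighbours in this order overlapped between libraries, apart from Ighg2c and Ighg1 at its end. In NSD1B KO the order changed at 2 places, with Iglc1 (mean 16440 CPM per kb) above Iglc2 (15630) and Ighg2b (17.3) above Ighg3 (4.97), again with no overlap. The sum of the light chain levels per kb was 18.04 and 19.63 times that of the heavy chains in NSD1B WT, and 34.0 and 33.9 times in NSD1B KO.

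Ighm, the gene of the IgM heavy chain, had 34147 and 35325 counts in NSD1B WT and 26269 and 24043 in NSD1B KO. In CPM it went from 4805 ± 37.9 (SD, n = 2) to 3612 ± 54.2, a log2 fold change of -0.41 (SE 0.08, adjusted p = 2.58e-06). Both NSD1B KO libraries were below both NSD1B WT libraries. Ighd, the gene of the IgD heavy chain next to it, moved the other way. It had 2468 and 2607 counts in NSD1B WT and 4090 and 3662 in NSD1B KO, a log2 fold change of 0.67 (SE 0.08, adjusted p = 1.09e-10). The ratio of Ighm to Ighd counts was thus 13.8 and 13.6 in NSD1B WT and 6.42 and 6.57 in NSD1B KO. Of the counts on these 2 genes, Ighm took 93.3% and 93.1% in NSD1B WT and 86.5% and 86.8% in NSD1B KO, with exact 95% (Clopper-Pearson) intervals that lay between 92.9% and 93.5% in NSD1B WT and between 86.1% and 87.2% in NSD1B KO. These intervals, like the others here, cover counting error only. The 2 genotypes did not overlap, and the exact permutation test over libraries (two-sided) gave p = 0.333, the smallest that 2 libraries against 2 allow, here and for the other shares and sums that do not overlap. Zfp318, a factor needed for Ighd transcripts, had 112 and 119 counts in NSD1B WT and 96 and 74 in NSD1B KO and was not called (log2 fold change -0.39, SE 0.21, adjusted p = 0.083).

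The switched isotypes split. Igha, the IgA gene, had 1318 and 1456 counts in NSD1B WT and 507 and 466 in NSD1B KO, which is 2.75-fold lower in NSD1B KO (log2 fold change -1.46, SE 0.09, adjusted p = 1.99e-19). Ighg3, the IgG3 gene, had 264 and 252 counts against 92 and 82, 2.86-fold lower (log2 fold change -1.51, SE 0.17, adjusted p = 2.36e-11). Both were lower also relative to Ighm, the log2 ratio to its counts changing by -1.04 for Igha and -1.10 for Ighg3, without overlap between genotypes. Ighg2b, the IgG2b gene, rose from 20 counts in each NSD1B WT library to 365 and 283 in NSD1B KO. That was 16.7-fold, from 2.77 ± 0.04 to 46.4 ± 6.12 CPM (SD, n = 2; log2 fold change 4.06, SE 0.21, adjusted p = 2.98e-22). It was the largest fold change among the 8 tested members, and the NSD1B KO libraries differed from each other by far less than the genotypes did.

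Ighg1, the IgG1 gene, had 0 counts in all 4 libraries, which allows it at most 0.00756% to 0.0105% of the heavy chain constant counts of a library (3 counts). Ighg2c, the IgG2c gene of this strain, had 1 count in 1 NSD1B WT library and 0 in the others. Neither was tested. Ighe, the IgE gene, was also at 0 in all 4 libraries. Over a genotype, 3 counts corresponded to 0.21 CPM in NSD1B WT and 0.22 CPM in NSD1B KO.

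**Figure D2:**
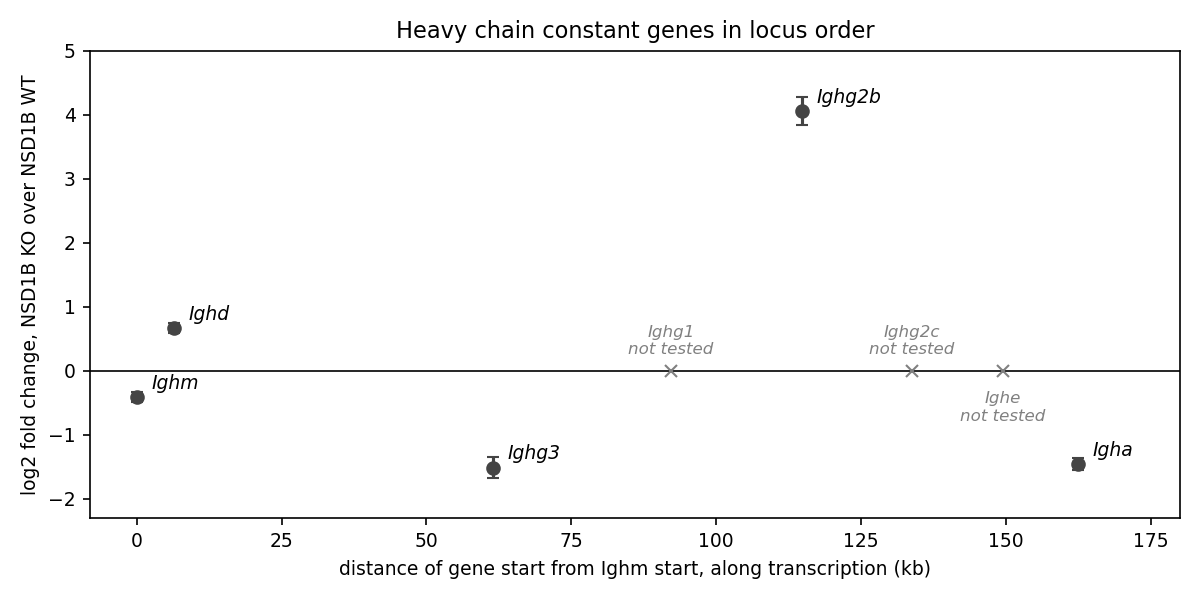
Log2 fold change (NSD1B KO over NSD1B WT) of the heavy chain constant genes against the distance of the gene start from that of Ighm, in kb along transcription. Points are edgeR estimates with their standard errors, and crosses on the zero line mark genes with too few counts to test. Ighg2b, 114.8 kb from Ighm, stands at 4.06, between Ighg3 at -1.51 and Igha at -1.46.

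Along the locus the changes did not follow the order of the genes, as the plot of fold change against distance shows. Ighd, 6.4 kb downstream of Ighm, rose, Ighg3, at 61.5 kb, fell, Ighg2b, at 114.8 kb, rose, and Igha, at 162.5 kb, fell.

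As shares of the heavy chain constant counts, Ighm held 89.4% and 89.1% in NSD1B WT and 83.9% and 84.2% in NSD1B KO, a difference of -5.15 percentage points. Ighd held 6.46% and 6.57% against 13.1% and 12.8%. Igha fell from 3.45% and 3.67% to 1.62% and 1.63%. Ighd gained 6.43 points and Ighg2b 1.03, while Igha changed by -1.93 and Ighg3 by -0.37. The switched isotypes together (4 IgG genes and Igha) held 4.19% and 4.36% in NSD1B WT and 3.08% and 2.91% in NSD1B KO. Within them the makeup differed more than the sum. Igha made up 82.2% and 84.3% of the switched counts in NSD1B WT and 52.6% and 56.1% in NSD1B KO. Ighg2b made up 1.25% and 1.16% in NSD1B WT and 37.9% and 34.1% in NSD1B KO, with exact 95% intervals of 0.708% to 1.92% and 30.8% to 41.0% over the libraries. The 4 IgG genes together held 0.746% and 0.686% of heavy chain counts in NSD1B WT and 1.46% and 1.28% in NSD1B KO, so the IgG share was higher while the IgA share was lower. None of these shares overlapped between genotypes.

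**Figure D3:**
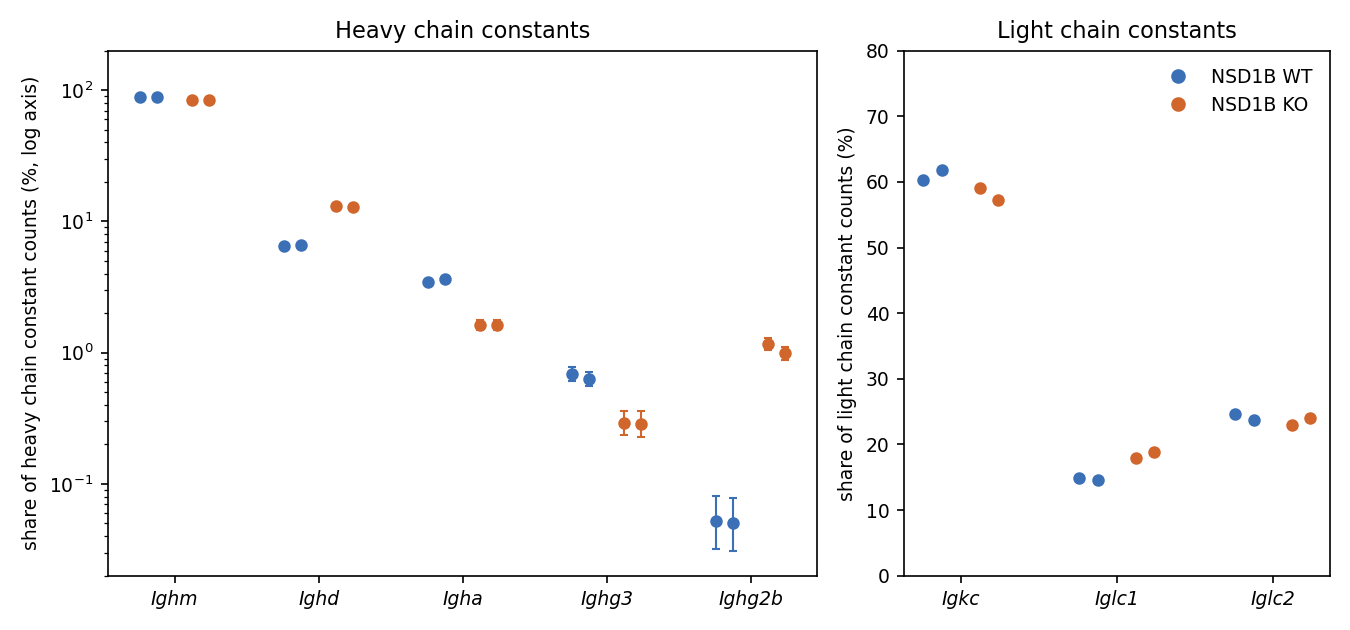
Shares of counts in each library with exact 95% intervals for counting error (most are smaller than the points). The left panel gives each heavy chain gene as a percent of the 7 heavy chain genes on a log axis, and the right panel each light chain gene as a percent of Igkc, Iglc1 and Iglc2 on a linear axis from 0. In NSD1B KO the shares of Ighd and Ighg2b are higher and those of Ighm, Igha and Ighg3 lower, the share of Iglc1 is higher and that of Igkc lower, and the share of Iglc2 overlaps.

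The 3 light chain genes were all higher in NSD1B KO. Igkc, the kappa gene and the most counted member, had 116690 and 134671 counts in NSD1B WT and 175782 and 154422 in NSD1B KO. In CPM that was 17376 ± 1479 (SD, n = 2) and 23692 ± 1042, a log2 fold change of 0.45 (SE 0.08, adjusted p = 1.66e-06). Iglc1, which is usually joined to the lambda variable gene Iglv1, had 28908 and 31829 counts against 53170 and 50686, a log2 fold change of 0.83 (SE 0.08, adjusted p = 8.86e-14). Iglc2, the partner of Iglv2, had 47787 and 51562 counts against 68446 and 64717, a log2 fold change of 0.48 (SE 0.08, adjusted p = 1.82e-07). Iglc1 rose more than Iglc2. Of the counts on these 2 genes, Iglc1 took 37.7% and 38.2% in NSD1B WT and 43.7% and 43.9% in NSD1B KO, without overlap.

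The kappa share of Igkc, Iglc1 and Iglc2 was 60.3% and 61.8% in NSD1B WT and 59.1% and 57.2% in NSD1B KO, a difference of -2.88 percentage points between means, with an SD of 1.33 points in NSD1B KO. This difference depends on which lambda genes are counted and on the scale. With Iglc3 added, the kappa share was 51.0% and 52.5% in NSD1B WT and 51.1% and 49.15% in NSD1B KO, the genotypes overlapped (exact permutation test, two-sided, p = 0.667) and the difference was -1.65 points. Per kb of exon, the same share was 49.93% and 51.43% in NSD1B WT and 49.88% and 47.91% in NSD1B KO, without overlap (p = 0.333, same exact test), a difference of -1.785 points. The share of Iglc2 among the 3 light chain genes also overlapped, at 24.7% and 23.7% against 23.0% and 24.0% (p = 0.667, same exact test). Iglc1 rose relative to both of the others. The mean log2 ratio of Igkc to Iglc1 counts changed by -0.38 and that of Iglc2 to Iglc1 by -0.35. That of Igkc to Iglc2 changed by -0.03, with overlap. The shares here are of counts, not of cells.

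Iglc3 itself had 35330 and 38288 counts in NSD1B WT and 46574 and 44373 in NSD1B KO, a log2 fold change of 0.36 (SE 0.08, adjusted p = 2.94e-05). The ratio of Iglc2 to its near copy Iglc3 was 1.35 in both NSD1B WT libraries and 1.47 and 1.46 in NSD1B KO. An antisense gene, 2010309G21Rik, shares 93 nt of exon with Iglc3 and none with Iglc1. It had 38379 and 40787 counts in NSD1B WT and 45083 and 38296 in NSD1B KO and was not called (adjusted p = 0.12). Since no source used here tells whether strand was used in counting, reads of Iglc3 and of this gene that lie within these 93 nt cannot be told apart. Iglc4, a lambda gene annotated beside Iglc2, had 158 and 208 counts in NSD1B WT and 0 in both NSD1B KO libraries, at least 118-fold lower.

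The heavy and light chain genes moved apart. Heavy chain genes took 16.5% and 15.4% of the counts on all 10 genes in NSD1B WT and 9.53% and 9.56% in NSD1B KO. For each Ighm count there were 3.42 and 3.81 Igkc counts in NSD1B WT and 6.69 and 6.42 in NSD1B KO. The summed CPM of the 7 heavy chain genes was 5387 ± 54.4 in NSD1B WT and 4297 ± 78.6 in NSD1B KO (SD, n = 2), a ratio of 0.80. That of Iglc1 and Iglc2 was 11070 ± 477 and 17028 ± 179, a ratio of 1.54, and Igkc alone had a ratio of 1.36.

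The variable genes, which are joined to the constant genes in the same transcripts, were summed by locus and were not used in choosing the members. The Igkv genes went from 9265 ± 414 to 13041 ± 15.2 CPM, a ratio of 1.41 beside 1.36 for Igkc. The 3 Iglv genes went from 9340 ± 607 to 14379 ± 984 CPM, a ratio of 1.54, the same as for the lambda constant genes. The Ighv genes went from 405 ± 20.3 to 191 ± 1.06 CPM, a ratio of 0.47, well under the 0.80 of the heavy chain constant genes. All 3 Iglv genes were called higher, but of 95 tested Igkv genes 37 were higher and 54 lower, and of 46 tested Ighv genes 10 were higher and 33 lower. The Igkv sum thus rose while more of its genes were lower than higher. Lambda genes made up 49.8% and 50.5% of the Igkv and Iglv counts in NSD1B WT and 51.2% and 53.6% in NSD1B KO. The many similar Igkv and Ighv genes can lose reads that map to several places, so levels of variable and constant genes were compared only between genotypes.

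**Figure D4:**
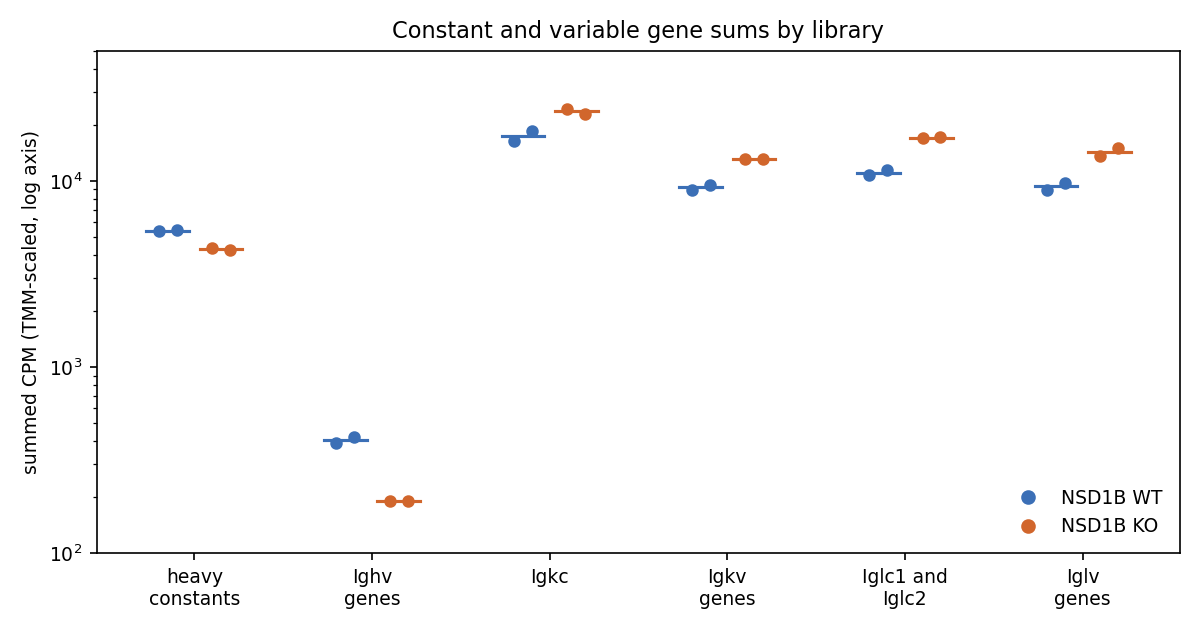
Summed CPM (TMM-scaled, log axis) of constant genes and of the variable genes of the same locus in each library. Circles are libraries and bars the means of the 2 libraries of a genotype. Kappa and lambda sums are higher in NSD1B KO for constant and variable genes alike, and heavy chain sums are lower, with the NSD1B KO over NSD1B WT ratio at 0.80 for constant and 0.47 for Ighv genes.

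Of 11 tested genes that carry out class switching, 7 were lower, 2 higher and 2 not called. Over all tested genes, 78.2% were called, 41.1% lower and 37.1% higher. The median log2 fold change of the list was -0.67 beside -0.10 over all tested genes. Trp53bp1, which protects DNA ends during switching, fell by 3.17 on the log2 scale (SE 0.21, adjusted p = 1.62e-18). Xrcc5 and Xrcc6, the Ku subunits of end joining, had log2 fold changes of -2.01 (SE 0.36) and -0.87 (SE 0.18). Msh6, of mismatch repair, rose (1.31, SE 0.14), and the nuclease gene Apex2 went from 0 to 40 and 26 counts, at least 22.8-fold higher.

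Among 14 tested factors of immunoglobulin transcription and mRNA processing, 4 were higher, 6 lower and 4 not called, with a median of -0.30. Pax5, which maintains B cell identity, had a log2 fold change of -3.29 (SE 0.20), and Tcf3, which encodes the E2A proteins that bind immunoglobulin enhancers, one of -2.98 (SE 0.23). Pou2f1 (Oct-1) and Pou2f2 (Oct-2), which bind the octamer of immunoglobulin promoters, had -2.24 (SE 0.14) and -1.47 (SE 0.15). Ell2, an elongation factor that favours the secreted form of heavy chain mRNA, went from 54 and 58 counts to 6 and 0 (-4.12, SE 0.53). Cstf2t, a paralog of the cleavage factor gene Cstf2, went from 5 and 1 counts to 303 and 212 (6.41, SE 0.34).

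Among 11 tested plasma cell and secretion genes, 3 were higher, 5 lower and 3 not called, with a median of -0.20. Jchain, which encodes the chain that joins IgM and IgA into polymers, had 1027 and 923 counts in NSD1B WT and 676 and 617 in NSD1B KO (log2 fold change -0.54, SE 0.09, adjusted p = 9.04e-07). Ighm and Igha were lower too, as were 41.1% of all tested genes, and a link of Jchain to them was not tested. Txndc5, a protein disulfide isomerase, fell by 0.81 (SE 0.08) and Slamf7 by 1.11 (SE 0.17). Prdm1, which drives plasma cell differentiation, rose by 1.59 (SE 0.34) from 17 and 21 counts, and Eaf2 by 1.89 (SE 0.12). Tent5c, a poly(A) polymerase that stabilizes immunoglobulin mRNA, went from 0 to 47 and 45 counts, at least 31.8-fold higher. Sdc1, Derl3 and Tnfrsf17, defining markers of plasma cells, were at 0 in all 4 libraries, and the plasma cell marker list as a whole had 1 gene higher and 3 lower of 5 tested, at a summed 524 to 535 CPM in NSD1B WT and 352 to 364 CPM in NSD1B KO.

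On the cell surface, membrane IgM and IgD signal through Cd79a and Cd79b. Cd79a, which also drives the Cre in both genotypes, went from 2035 and 1941 CPM to 810 and 768 CPM (log2 fold change -1.33, SE 0.08, adjusted p = 7.99e-21). Cd79b had a log2 fold change of 0.26 (SE 0.08, adjusted p = 0.00213), without overlap between genotypes. It was not called because its fold change of 1.195 was under the limit of 1.2. In all, 3 of these 6 partner genes were lower and 3 not called (median -0.27), Cr2 (CD21) having a log2 fold change of -3.69 (SE 0.22). Of 5 tested transport and Fc receptor genes, 1 was higher and 3 lower (median -0.49). Fcmr, the IgM receptor of B cells, fell by 0.49 (SE 0.08), and Fcer2a (CD23) went from 134 and 172 counts to 0, at least 98.2-fold lower. Fcgrt fell by 1.70 (SE 0.30), and Fcamr, the higher gene, rose by 1.84 (SE 0.38) from 13 and 14 counts.

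The isotypes are used unequally by B cell subsets, so subset markers stand here beside them. Of 5 tested B1 cell markers 2 were higher and 3 lower (median -0.905), with Cd5 going from 0 to 120 and 103 counts (at least 77.2-fold) and Spn, which encodes CD43, at a log2 fold change of -1.32 (SE 0.22). Of 5 tested marginal zone markers 1 was higher and 4 lower (median -3.69). Of 5 follicular markers 2 were higher and 1 lower (median 0.16), and of 7 germinal centre and memory markers 2 were higher and 5 lower (median -3.35). Cd55, of the follicular list, rose by 0.60 (SE 0.08). The lower gene of that list was Fcer2a, with 134 and 172 counts in NSD1B WT and 0 in both NSD1B KO libraries. Of the genes of the surrogate light chain and of V(D)J recombination, Igll1, Vpreb1, Vpreb2, Rag1, Rag2 and Dntt were at 0 in all 4 libraries, and Vpreb3 alone passed the filter and rose (2.05, SE 0.12). All these counts stand beside the 78.2% of all tested genes that were called.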

How the data were processed

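B220+ cells from the spleen were sequenced in 2 NSD1B WT and 2 NSD1B KO libraries of total RNA. The authors deposited counts per gene and library: whole numbers, neither normalized nor scaled by length. Per their Methods, paired-end reads were mapped to mm10 with Bowtie2. FPKM from Cufflinks was not used here. Neither the program that counted reads, nor its use of strand, nor the gene annotation is named in those sources. Rows that name no gene were left out, and reads on no gene were 44.3% to 44.6% of all counted reads, with a further 11.2% to 13.2% not unique. The labels give no batch or date.

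Gene identifiers were matched to GENCODE M21 (55141 of 55401, 99.5%, without version, and all 10 members with version), which gave positions, exon lengths and transcript sequences, aligned with Biopython 1.88 in Python 3.11.15. Counts were scaled by TMM (factors 0.952 to 1.03) and filtered by filterByExpr (minimum count 10, minimum total 15) in edgeR 4.0.16 and R 4.3.3. The quasi-likelihood test compared NSD1B KO with NSD1B WT over 11657 genes, with Benjamini-Hochberg adjusted p over all of them. Genes were called at an adjusted p below 0.05 where the fold change exceeded 1.2. The coefficient of variation between libraries was 0.0735. Counts of the 2 libraries of a genotype differed by more than sampling noise, with a mean chi-square per gene of 2.92 in NSD1B WT and 3.78 in NSD1B KO. For genes at 0 in a genotype, a bound was taken from 3 counts over the group. Shares have exact 95% binomial intervals, and shares and sums were compared by the exact permutation test. The procedure was tested on simulated data.

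The genes named are the 10 members, Nsd1, the other listed constant genes and, from each pathway list, up to 6 genes, those called first and by absolute log2 fold change. Zfp318, Jchain, the cell type markers, the genes that overlap members and the genes given as being at 0 are exceptions to this rule, picked once their values had been seen. Some genes of the lists are not reported here. The members and lists were chosen with earlier results of these data known. Lists covered the other constant genes, B cell receptor partners, immunoglobulin transcription and mRNA processing, plasma cells and secretion, transport and Fc receptors, class switching, surrogate light chain with V(D)J recombination, B cell subsets (B1, marginal zone, follicular, germinal centre and memory) and other cell types. Alternatives were DESeq2 1.42.0 (its size factors and its Wald test), limma-voom (limma 3.58.1), library size alone, upper quartile scaling, immunoglobulin genes left out of the scaling, filters of 1 count in any library and of 1 CPM in all 4, a stricter threshold, each library left out in turn, the replicate number as a block, shares per kb of exon, and Ighe or Iglc3 added.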

Additional observations from a re-analysis of the deposited data

How the results depend on the processing

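Under the alternative scalings, filters and tests and with each library left out, the members kept their direction and their call, with the exceptions given here. At the stricter threshold (adjusted p below 1e-05, absolute log2 fold change over 0.5), 3 members instead of 5 were called higher, and Ighm (-0.41), Igkc (0.45), Iglc2 (0.48) and Iglc3 (0.36) were no longer called. That threshold called 57.2% of all tested genes. The filter of 1 CPM in all 4 libraries left 8334 genes, of which 2855 were higher and 2991 lower, against 4324 and 4795. Per kb of exon the Ighm share differed by -5.48 instead of -5.15 points, that of Igha by -1.39 instead of -1.93, that of Ighg3 by -0.284 instead of -0.373 and that of Ighg2b by 0.73 instead of 1.03, and with Iglc3 the kappa share differed by -1.65 instead of -2.88 points. Log2 fold changes ranged from 0.37 to 0.56 for Igkc, from -0.49 to -0.38 for Ighm and from 3.91 to 4.19 for Ighg2b. Iglc4 did not pass the filter of 1 CPM in all 4 libraries and has no value there. Library size alone shifted the median of all genes by -0.08. Replicate numbers are shared by the genotypes, but the deviations of same-numbered libraries had a correlation of 0.0774 over genes and only 2 pairs exist, so they were not taken as pairs. With the replicate number as a block, 5 members were higher and 3 lower, and 4254 genes were higher and 4706 lower.

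With 2 libraries a genotype, an exact permutation test cannot go below 0.333. The 20 counts of Ighg2b in each NSD1B WT library and the 0 to 1 counts of Ighg1 and Ighg2c limit what can be said of these genes.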

Other observations

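The short joining genes, which lie between the variable and constant genes, were summed as well. The Igkj genes went from 17.7 ± 1.07 to 30.6 ± 1.76 CPM (SD, n = 2) and the Ighj genes from 2.35 ± 0.23 to 0.288 ± 0.01 CPM, without overlap. The Iglj genes were at 38.2 and 40.9 CPM in NSD1B WT and 18.3 and 36.0 CPM in NSD1B KO, lower by values that differed more between the NSD1B KO libraries than between the NSD1B WT libraries. Gm30211, a non-coding RNA gene on the same strand whose span takes in Igkc without sharing exon bases with it, rose from 221 ± 5.61 to 336 ± 0.97 CPM (log2 fold change 0.61, SE 0.08, adjusted p = 2.34e-09), beside a log2 fold change of 0.45 for Igkc. It was named after its value was seen.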
